A study of Mus musculus with 2 samples.

Results

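The acrosome is the secretory vesicle that caps the sperm nucleus, and 10 genes that encode its proteins were followed through mouse spermatogenesis: Acr, Acrbp, Zpbp, Zpbp2, Acrv1, Spaca1, Spaca3, Spaca7, Spam1 and Izumo1. They were chosen by name, and each of the 10 could be assigned to 1 row of the deposited matrix, as 5476 of the 25065 listed symbols could. Single cells came from whole testes of normal adult male mice (WT) and of Tex13a-knocked-out mice (KO), both of strain C57BL/6 in the labels and C57BL/6N in the study's methods, in which CRISPR/Cas9 had removed the reading frames of the X-linked gene Tex13a. For each genotype, 3 testes of 3 mice were pooled, digested with collagenase I and captured in microwells with barcoded beads, so that there was 1 library per genotype. The authors had assigned each cell to 1 of 13 clusters, with spermatogonia in Sg, spermatocytes in Sc1 and Sc2, a mixture of spermatocytes and early spermatids in Sd1, and haploid spermatids from Sd2 to Sd10. Without replicates no p-value is given, and genotype and library cannot be told apart.

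The acrosome grows from Golgi-derived vesicles in round spermatids, spreads over the nucleus as the cell elongates, and releases its contents at the egg coat. Its matrix holds proteases and their binding partners, its membranes carry proteins for binding to the zona pellucida and for fusion with the egg, and one of its enzymes digests hyaluronan around the egg. Many of its mRNAs are made long before the spermatid nucleus condenses and transcription stops.

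The WT library held 5170 cells with 45568532 unique molecular identifiers (UMIs, each standing for 1 captured transcript) and the KO library 7238 cells with 67734689, with cluster medians between 4978 and 11862 UMIs per cell, and no barcode occurred in both. The UMIs of all cells of a cluster were added up within each library, and levels are given as CPM, the UMIs of a gene in 1000000 UMIs of that cluster. Intervals are exact 95% intervals and cover counting error only. The germ cell markers followed the cluster names only in part: in both libraries the spermatogonial list (3 of 7 genes with a row) was highest in Sc1, not in Sg, at 4374 CPM in WT and 4526 CPM in KO, led by Stra8, a gene of meiotic entry. Piwil1, a piRNA pathway gene, was highest in Sc2, Tex36 in Sd4 and Hemgn in Sd5. Markers of somatic cells with an assigned row stood low in every cluster, at most 12.8 CPM for Sertoli cells (1 of 7 listed genes), 10.2 CPM for Leydig cells (1 of 5), 14 CPM for peritubular cells (1 of 3) and 56.7 CPM for macrophages (2 of 6), while red cell genes (2 of 3) reached 437 CPM in WT Sd9 and 615 CPM in KO Sd8, and none of 3 endothelial genes had an assigned row. Their part in the results was not tested. Tex13a itself could stand for 7 rows of the matrix, so the genotype labels were not checked with it. The protamine gene Prm1, a gene of condensing spermatids, stood at 21336 CPM in WT and 20665 CPM in KO in Sg, against 5359 and 4489.9 CPM in Sc2 and 3910 and 3606 CPM in Sd1, and the part of RNA from other cells in this was not tested. Sg should lack spermatid transcripts, and the level of each acrosome gene in Sg, from 6.09 CPM for Izumo1 to 96.2 CPM for Zpbp2 in WT, is used below as a level for comparison, which is not shown to be the background of other clusters.

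In the GENCODE vM21 annotation of GRCm38, Acr lies at chr15:89568326-89574585, Acrbp at chr6:125049689-125063267, Zpbp at chr11:11279626-11462408, Zpbp2 at chr11:98551097-98558665, Acrv1 at chr9:36693220-36698843 and Spaca1 at chr4:34024874-34050191. Spaca3 lies at chr11:80858365-80867814, Spaca7 at chr8:12573029-12600744, Spam1 at chr6:24791188-24801048 and Izumo1 at chr7:45621811-45628823. Zpbp and Spaca1 are on the minus strand and the other 8 on the plus strand. Acrbp, Zpbp, Spaca7 and Izumo1 overlap other annotated genes, among them Rasip1 on the strand of Izumo1, and since the strand setting of the counting is not given in the sources used here, reads of such pairs may not have been told apart.

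Sequences upstream of the genes are shown first because 6 of the 10 appeared together at the start of the spermatid clusters. A RefSeq promoter window on build GRCm38.p6 matched 9 of the 10 genes, and Acr had none. The 250 bases before each start site were searched on both strands for the cAMP response element TGACGTCA, the site read by CREM, an activator of spermatid genes. This site was present in 1 of the 9 genes, Izumo1, and in 1.77% of all 27025 genes. Its shorter core TGACG, which is also part of the full site, was present in 5 of the 9 genes, Acrbp, Zpbp2, Spaca1, Spaca3 and Izumo1, and in 19.8% of all genes. The form TGANGTCA, with any base in the fourth place, was searched after the sequences had been read, and was present in 4 of the 9 genes, Spaca3, Spaca7, Spam1 and Izumo1, and in 8.55% of all genes. Each 30-base stretch below is written 5′ to 3′ along the strand of its gene, with the match in capitals and with the distance in bases from the match's first base to the annotated start.
Izumo1, chr7:45621704-45621733, plus strand, 96 bases before the start: ctgccaccctaTGACGTCAcgatgggatgg
Spaca7, chr8:12572991-12573020, plus strand, 34 bases before the start: gtgccctgtggTGATGTCAcaggtccccca
Spam1, chr6:24791131-24791160, plus strand, 46 bases before the start: agttcactttgTGATGTCAtctgttcctag
Spaca1, chr4:34050117-34050146, minus strand, 69 bases before the start: cttcgaatggggTGACGcgcggtgacgcct
Spaca3, chr11:80858289-80858318, plus strand, 62 bases before the start: cacaggtgatctTGACGaagttccgtgagt
Acrbp, chr6:125049897-125049926, plus strand, 18 bases before the start: cctcaccttctgTGACGtagcagccgcgcc
Spaca1 has a second TGACG in the same stretch, 59 bases before the start. Spaca1 and Spaca3 each have a further annotated start, before which these matches lie at 67 and 88 bases. The GENCODE genes of Acrbp and Spaca1 begin upstream of the RefSeq starts used here, so the stretches shown for both lie inside those genes. Zpbp2, not shown, holds TGACG on the opposite strand, 147 bases before its start. Acrv1 and Zpbp held none of these 3 forms. Both had the motif TGTGTG, searched on both strands, Acrv1 at 2 places and Zpbp 100 bases before its start. TGTGTG was present in 3 of the 9 genes and in 20% of all genes. Further motifs were searched in the same way: TATAAA was present in 1 of the 9 genes (14.3% of all genes), GGGCGG in 4 (35.4%) and GTTGCC in 1 (11.8%). These matches describe letters only, and binding of any factor was not measured.

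The zinc finger of Tex13a belongs to a family that binds single-stranded RNA with the letters AGGUAA. Among the longest coding transcripts of the 10 genes in the GENCODE vM21 annotation of GRCm38, these letters occurred in 1, that of Zpbp, against 30.8% of 21877 coding genes and 23.9% of 15246 coding genes whose transcripts are within the same range of length. The 3 sites of Zpbp are shown because no other of the 10 holds the letters, with positions counted from the first base of its 4248-base transcript on the minus strand of chromosome 11.
Zpbp, bases 173 to 178: ggcgcgcgccAGGUAAcgaccuucug
Zpbp, bases 2843 to 2848: uauauaagcaAGGUAAauuuucuguu
Zpbp, bases 3258 to 3263: gaucagagcaAGGUAAaauuaagagg

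All 10 genes reached their highest WT level in 1 of the clusters Sd1 to Sd4, as did 40.4% of the 3671 genes with at least 1000 WT UMIs. Summed over the 10 genes, the WT level was 285 CPM in Sc1, 1536 CPM in Sc2, 2951 CPM in Sd1, 4066 CPM in Sd2, 5656 CPM in Sd3 and 5543 CPM in Sd4. It was then 1315 CPM in Sd5, 576 CPM in Sd6, 318 CPM in Sd7, 175 CPM in Sd8, 169 CPM in Sd9 and 150 CPM in Sd10. Clusters Sd1 to Sd4 thus held 79.6% of the UMIs of these genes in WT and 80.8% in KO. Within this common window the 10 genes followed 2 courses, described below as early (Acr, Acrbp, Zpbp, Zpbp2) and late (Acrv1, Spaca1, Spaca3, Spaca7, Spam1, Izumo1), a division made after the values were seen and therefore given as a description.

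**Figure D1:**
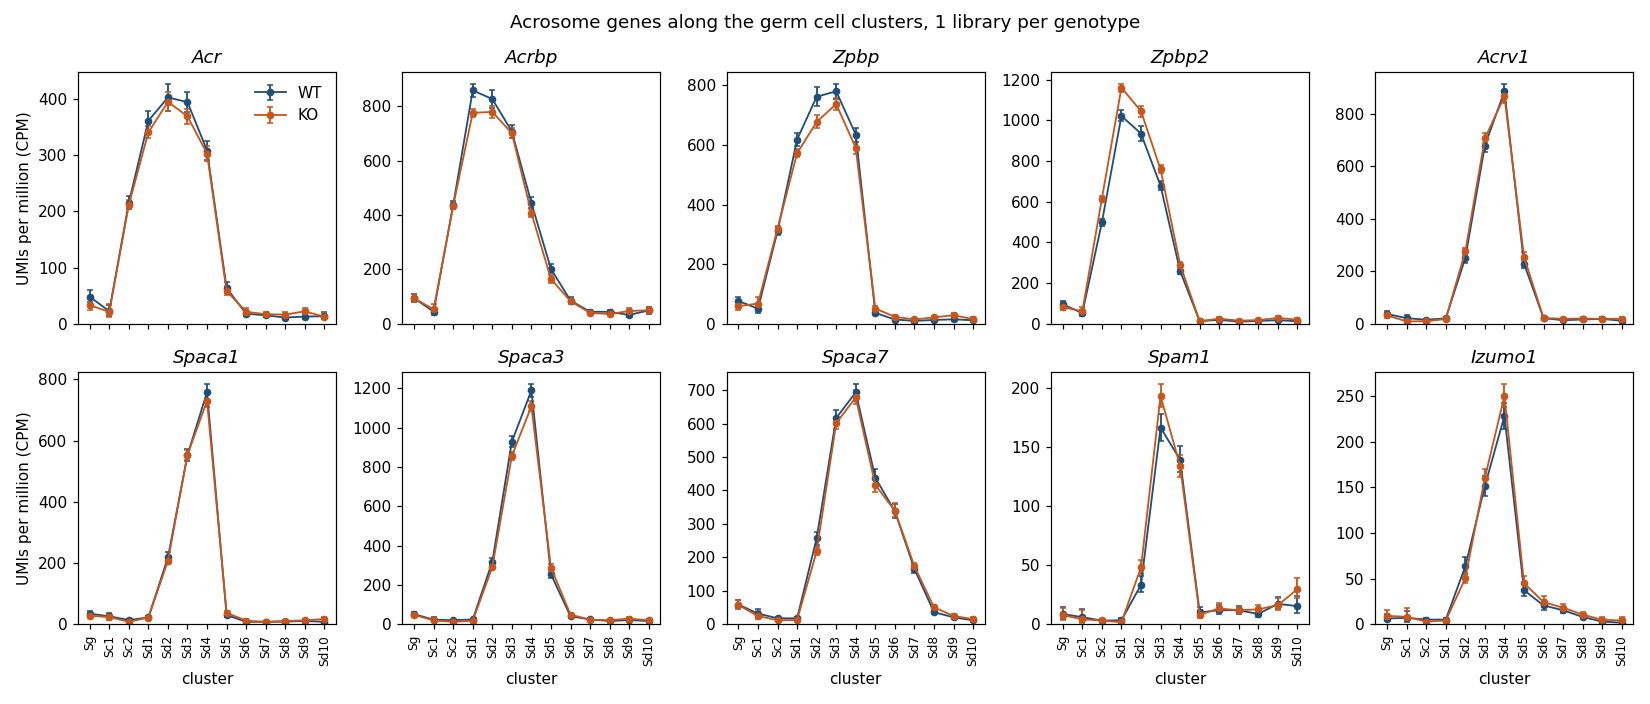
Level of each of the 10 acrosome genes (vertical axis, CPM) in the 13 clusters (horizontal axis), with WT in blue and KO in orange, 1 library each; bars are exact Poisson 95% intervals. Acr, Acrbp, Zpbp and Zpbp2 are already high in Sc2, the other 6 genes leave their floor at Sd2, and Spaca7 keeps the highest share of its peak in Sd6 and Sd7.

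The early genes were the first to appear, in late spermatocytes. Acr encodes acrosin, the serine protease of the acrosomal matrix. In WT it stood at 22.5 CPM in Sc1, 216 CPM in Sc2, 361 CPM in Sd1, 403 CPM in Sd2, 394 CPM in Sd3 and 308 CPM in Sd4. The step from Sc1 to Sc2 was 9.57-fold (95% interval 6.35 to 15.1), and Sd2 and Sd3 did not differ beyond counting error (1.02-fold, 0.948 to 1.10). Acrbp, whose product binds the acrosin precursor and packs it into the granule, was at 45.1 CPM in Sc1, 437 CPM in Sc2, 858 CPM in Sd1, 827 CPM in Sd2, 707 CPM in Sd3 and 445 CPM in Sd4. Its highest 2 clusters, Sd1 and Sd2, were again not apart (1.04-fold, 0.987 to 1.09).

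Zpbp and Zpbp2 encode paralogous proteins of the acrosome that bind the zona pellucida and are needed for its normal shape. Zpbp was at 50.9 CPM in Sc1, 311 CPM in Sc2, 618 CPM in Sd1, 762 CPM in Sd2, 781 CPM in Sd3 and 635 CPM in Sd4 in WT. Zpbp2 was at 52.9 CPM in Sc1, 499 CPM in Sc2, 1022 CPM in Sd1, 935 CPM in Sd2, 679 CPM in Sd3 and 260 CPM in Sd4. The paralogs ran apart after Sd1: from Sd1 to Sd3, Zpbp was 1.26-fold higher (1.2 to 1.32) while Zpbp2 was 1.51-fold lower (1.44 to 1.57). In KO the same step was 1.29-fold higher for Zpbp (1.24 to 1.33) and 1.53-fold lower for Zpbp2 (1.48 to 1.58).

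The late genes stood near their floor in Sc2 and in Sd1, where all 6 were at or below their own level in Sg in both libraries. Acrv1 encodes an acrosomal matrix protein also known as SP-10. Its WT level was 15.8 CPM in Sc2, 21.0 CPM in Sd1, 251 CPM in Sd2, 679 CPM in Sd3 and 885 CPM in Sd4. The step from Sd1 to Sd2 was 12-fold (9.77 to 14.7).

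Spaca1, Spaca3 and Spaca7 encode sperm acrosome associated proteins, Spaca1 a membrane protein needed for shaping the acrosome and Spaca3 a lysozyme-like protein. In WT, Spaca1 was at 21.6 CPM in Sd1, 218 CPM in Sd2, 553 CPM in Sd3 and 759 CPM in Sd4. Spaca3 was at 23.6 CPM in Sd1, 317 CPM in Sd2, 928 CPM in Sd3 and 1189.8 CPM in Sd4. Spaca7 was at 17.2 CPM in Sd1, 257 CPM in Sd2, 617 CPM in Sd3 and 694 CPM in Sd4. All 3 were highest in Sd4, above Sd3 by 1.37-fold for Spaca1 (1.30 to 1.44), 1.28-fold for Spaca3 (1.23 to 1.33) and 1.12-fold for Spaca7 (1.07 to 1.18).

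Spam1 encodes the sperm hyaluronidase PH-20, and Izumo1 the protein that binds the egg receptor Juno before fusion. Spam1 was at 3.22 CPM in Sd1, 33.2 CPM in Sd2, 166 CPM in Sd3 and 139 CPM in Sd4 in WT. Among the late genes it was the only one that was higher in Sd3 than in Sd4, by 1.2-fold in WT (1.08 to 1.33) and by 1.44-fold in KO (1.32 to 1.57). Izumo1 was at 4.92 CPM in Sd1, 63.6 CPM in Sd2, 152 CPM in Sd3 and 229 CPM in Sd4, with Sd4 1.51-fold above Sd3 (1.37 to 1.66). It had the largest lead of the highest cluster over the next among the 10 genes in WT.

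Summed, the 4 early genes stood at 2860 CPM in Sd1 and 2927 CPM in Sd2 in WT, a ratio of 1.02 (0.996 to 1.05), while the 6 late genes went from 91.5 CPM to 1139 CPM, a 12.4-fold step (11.3 to 13.7). From Sd1 to Sd3 the late genes were 33.8-fold higher (30.9 to 37.1) and the early genes 1.12-fold lower (1.09 to 1.14). The courses were also described by the correlation of log2(CPM + 1) over the 13 WT clusters, which share 1 library. It was 0.896 to 0.981 within the 6 pairs of early genes, 0.650 to 0.993 within the 15 pairs of late genes and 0.121 to 0.798 in the 24 pairs between them. In KO the ranges were 0.909 to 0.984, 0.646 to 0.987 and -0.013 to 0.723.

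From round to elongating spermatids the levels were lower for all 10 genes, but by very different amounts. Between Sd4 and Sd6, where Prm1 went from 13515 to 109145 CPM in WT, 9 of the 10 genes were at least 5-fold lower in WT, against 25.5% of the 3291 genes with at least 100 WT UMIs in Sd4. In WT Sd6, 7 of the 10 genes stood at or below their own level in Sg, all but Spaca7, Spam1 and Izumo1. The folds below therefore also depend on the height in Sd4, and do not rank the genes by steepness of loss. Spaca1 had the largest difference, with 759 CPM in Sd4, 29.9 CPM in Sd5 and 7.29 CPM in Sd6, which is 104-fold (68.0 to 168). Zpbp was 43.6-fold lower (32.1 to 60.6), Acrv1 40.5-fold (31.6 to 52.8) and Spaca3 30.1-fold (25.0 to 36.5). The difference was smaller for Acr (17.1-fold), Zpbp2 (13.4-fold), Spam1 (11.8-fold), Izumo1 (11.2-fold) and Acrbp (5.19-fold).

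Much of it lay in the single step from Sd4 to Sd5, and here the early and late genes did not separate. Spaca1 was 25.3-fold lower in Sd5 than in Sd4 (20.4 to 32.0), Zpbp2 18.7-fold (13.6 to 26.6), Zpbp 17.2-fold (14.1 to 21.2) and Spam1 14.1-fold (9.61 to 21.6). Acrv1 and Spaca3 kept 25.9% and 21.3% of their highest level in Sd5. Acrbp was at 202 CPM in Sd5 and 85.7 CPM in Sd6, and its interval from Sd4 to Sd6 in KO, 4.88-fold (4.29 to 5.58), spans the limit of 5.

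Spaca7 was the exception. In WT it stood at 694 CPM in Sd4, 438 CPM in Sd5, 338 CPM in Sd6, 165 CPM in Sd7 and 35.7 CPM in Sd8, and in KO at 679, 417, 340, 173 and 50.3 CPM. Its level in Sd6 was still 48.7% of its highest level in WT and 50.1% in KO, a 2.05-fold difference from Sd4 in WT (1.91 to 2.21) and a 2.0-fold difference in KO (1.87 to 2.14). Compared with Spaca3, which ran with it up to Sd4, the levels in Sd6 were 338 and 39.6 CPM in WT.

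The fraction of cells in which a gene was seen followed the levels. Cells were thinned to 3000 UMIs each, which all cells reached. Acrbp was seen in 93.0% of WT cells in Sd1, Zpbp2 in 94.4% in Sd2, Spaca3 in 95% in Sd4 and Acrv1 in 90.8% in Sd4. In Sg, which should lack spermatid transcripts, the 10 genes were seen in 1.83% to 14.6% of WT cells, with a median of 6133 UMIs per cell before thinning against 8976 in Sd4. With cells at their own depth, the median share over the 10 genes in WT Sd4 was 94.9% in place of 78.8%. Of the 10 genes, a WT cell showed 0.868 on average in Sg, 2.42 in Sc2, 3.63 in Sd1, 5.63 in Sd2, 7.55 in Sd3, 7.01 in Sd4, 2.35 in Sd5 and 0.408 in Sd10. At least 8 of the 10 were seen together in 54.2% of WT cells and 48.8% of KO cells in Sd3.

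**Figure D2:**
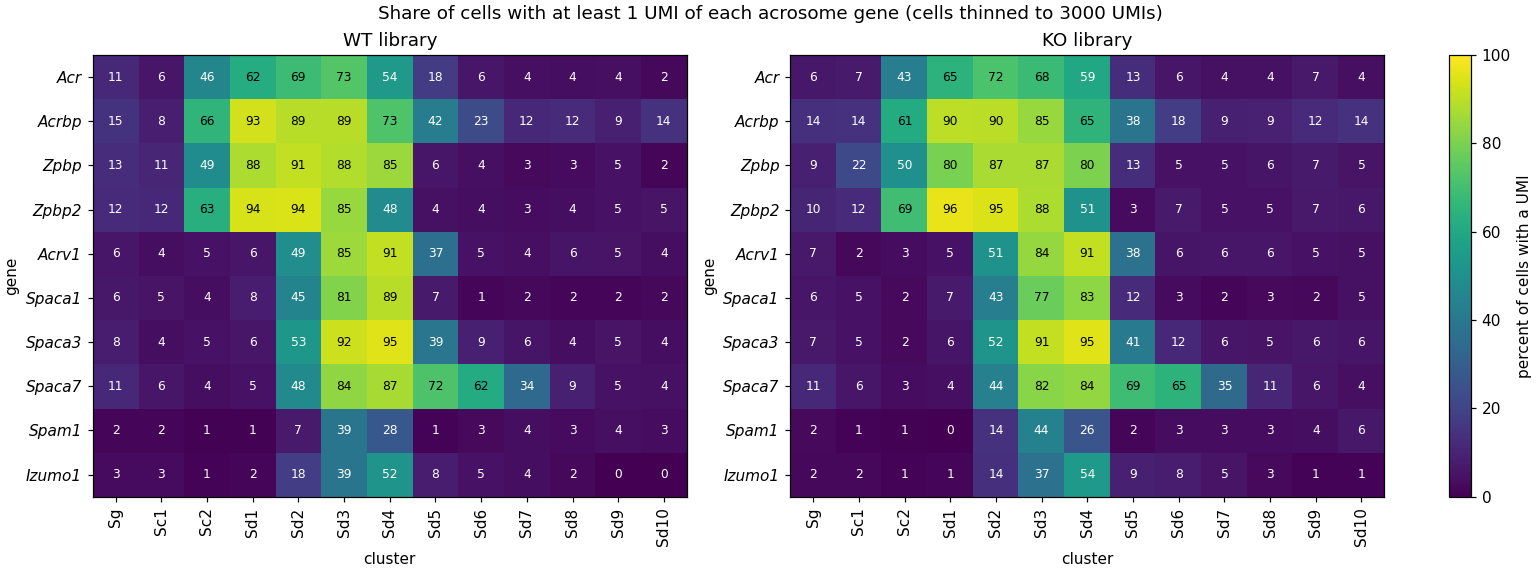
Percent of cells with at least 1 UMI of each acrosome gene (rows) in each cluster (columns), for the WT library on the left and the KO library on the right, after thinning every cell to 3000 UMIs. In Sc2, Acr, Acrbp, Zpbp and Zpbp2 are seen in 45.9% to 65.6% of WT cells, and in Sd2 the other 6 genes are seen in 7.17% (Spam1) to 53.0% (Spaca3). In WT Sd5, Acrbp, Spaca3 and Acrv1 are still seen in 42.2%, 39.1% and 36.7% of cells, and in Sd6 Spaca7 in 61.6% of WT and 64.7% of KO cells.

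From Sd7 on, at least 7 of the 10 genes in each cluster and library were at or below their own level in Sg. In Sd10, 9 of the 10 genes had a WT level at or below their own level in WT Sg, and 9 of 10 did in KO, the exception in each being Spam1. Spam1 stood at 15.2 CPM in Sd10 against 8.53 CPM in Sg in WT, with intervals of 9.13 to 23.7 and 4.66 to 14.3, and at 29.5 CPM against 7.60 CPM in KO, with intervals of 22.0 to 38.7 and 3.79 to 13.6. Izumo1 had a UMI in 2 of 184 WT cells of Sd10 at full depth (1.09%, with an upper limit of 3.87%), and in 0 of 184 after thinning, where the same exact interval reaches 1.98% of cells with a UMI. In Sd6 and Sd7 the genes above their Sg level in both libraries were Spaca7, Spam1 and Izumo1, with Izumo1 at 20.5 and 15.2 CPM in WT.

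The question that the 2 genotypes pose is whether the loss of Tex13a shifts when acrosome mRNAs appear or leave. The cluster with the highest level was the same in WT and KO for 9 of the 10 genes, against 84.2% of the 3671 genes. The exception, Acrbp, was highest in Sd1 in WT and in Sd2 in KO, at 776 and 779 CPM in these clusters in KO (1.0-fold, 0.969 to 1.04), which are not apart. A gene was counted as different where KO and WT were at least 1.5-fold apart with at least 100 UMIs in both libraries together, a rule of size and not a test.

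In the clusters where the 10 genes are highest, KO and WT were close. The summed level in Sd3 was 5656 CPM in WT and 5639 CPM in KO, a log2 ratio of KO to WT of 0.00 (-0.026 to 0.017). In Sd4 it was 5543 CPM in WT and 5360.3 CPM in KO, a log2 ratio of -0.05 (-0.072 to -0.024). Gene by gene in Sd3, the WT and KO levels of the protease system were 394 and 369 CPM for Acr and 707 and 701 CPM for Acrbp. Those of the other matrix and shape genes were 679 and 706 CPM for Acrv1, 553 and 554 CPM for Spaca1, 928 and 856 CPM for Spaca3, and 617 and 602 CPM for Spaca7. Those of the egg-facing genes were 166 and 193 CPM for Spam1 and 152 and 161 CPM for Izumo1. The pairs lay on both sides of 0, with 5 genes higher and 5 lower in KO and a median log2 ratio of -0.005, beside -0.01 for all genes. None of the 10 genes was past the limit in Sd3, where 1.21% of all genes were, or in Sd4, where 1.46% were, or in Sd2, where 2.13% were. In Sd1, with 1.66% of all genes past the limit, 0 of the 8 genes with enough UMIs were. Of the values with enough UMIs here, those farthest from 0 were Spam1 in Sd2, at 33.2 CPM in WT and 48.0 CPM in KO (log2 ratio 0.53, 0.183 to 0.889), and Spaca7 in Sd1, at 17.2 and 12.1 CPM (log2 ratio -0.51), a level below that in Sg. With UMIs per cell in place of CPM, the summed log2 ratio was 0.16 in Sd3, where the median of all genes was 0.15.

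Zpbp2 differed from the other early genes by a small amount, in the same direction from Sc2 to Sd4. In WT and KO respectively it stood at 499 and 616 CPM in Sc2, 1022 and 1160.7 CPM in Sd1, 935 and 1046 CPM in Sd2, 679 and 759 CPM in Sd3, and 260 and 292 CPM in Sd4. Its log2 ratio of KO to WT was 0.30 in Sc2 (0.247 to 0.362) and lay between 0.16 and 0.18 from Sd1 to Sd4. The intervals were above 0 in each of these 5 clusters, such as 0.101 to 0.224 in Sd3 and 0.059 to 0.276 in Sd4. Its paralog Zpbp stood lower in KO than in WT from Sd1 to Sd4, at 781 CPM in WT and 738 CPM in KO in Sd3 (log2 ratio -0.08, -0.141 to -0.022). These intervals hold no variation between mice or between library preparations.

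In the other clusters the counts past the limit were 3 of 8 in Sc2 (3.93% of all genes), 1 of 8 in Sd6 (2.77%), 1 of 7 in Sd8 (3.09%) and 2 of 5 in Sd9 (7.23%). They were 0 of 7 in Sg (2.96%), 0 of 2 in Sc1 (3.77%), 0 of 8 in Sd5 (1.56%), 0 of 9 in Sd7 (2.92%) and 0 of 1 in Sd10 (9.88%). Over all clusters, 7 of 93 values that had enough UMIs were past the limit, 3 lower and 4 higher in KO, against 2.96% of the values of all genes. This count was 15 with thinned cells, 11 without the 5% of cells with most UMIs, 17 with a minimum of 10 UMIs, 18 with none and 0 at a 2-fold limit. The share of all genes was not computed under these changed settings, so these counts cannot be set against it. The other 37 of 130 values had too few UMIs. All 7 values lay below the level of the same gene in Sg of both libraries.

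The 3 lower values were all late genes in Sc2, before their own onset. In WT and KO respectively, Acrv1 stood at 15.8 and 10.1 CPM, Spaca1 at 13.2 and 7.78 CPM, and Spaca3 at 19.7 and 11.5 CPM, from 94 to 146 UMIs each. Their log2 ratios were -0.63, -0.76 and -0.78. The summed late genes were at 74.0 CPM in WT and 46.8 CPM in KO in Sc2, beside 5359 and 4489.9 CPM of Prm1, which also belongs to later cells, and the part of RNA from other cells was not tested.

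The 4 higher values were Zpbp in Sd6, Sd8 and Sd9 and Zpbp2 in Sd9. Zpbp had 42 UMIs in WT and 72 in KO in Sd6 (14.6 and 23.8 CPM, log2 ratio 0.70, 0.137 to 1.29). In Sd8 it had 50 and 104 UMIs (13 and 21.7 CPM, log2 ratio 0.73, 0.235 to 1.25), and in Sd9 40 and 74 UMIs (15.3 and 29.0 CPM, log2 ratio 0.92, 0.352 to 1.52). Zpbp2 had 48 and 74 UMIs in Sd9 (18.3 and 29.0 CPM, log2 ratio 0.66, 0.119 to 1.22). Zpbp, shown above with its 3 AGGUAA sites, gave 3 of these 4 values, and a relation to the sites was not tested. The minimum counts UMIs of both libraries together, so a higher KO level can itself carry a value past it. Without the minimum, 4 of the 10 genes in Sd9 and 5 in Sd10 were past the limit, all higher in KO. Those in Sd10 did not include Zpbp, and the share of all genes was not computed without the minimum. With 1.67% to 3.93% of its highest level left, Zpbp in Sd6, Sd8 and Sd9 was below its own level of 76.7 CPM in WT Sg and 59.4 CPM in KO Sg.

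**Figure D3:**
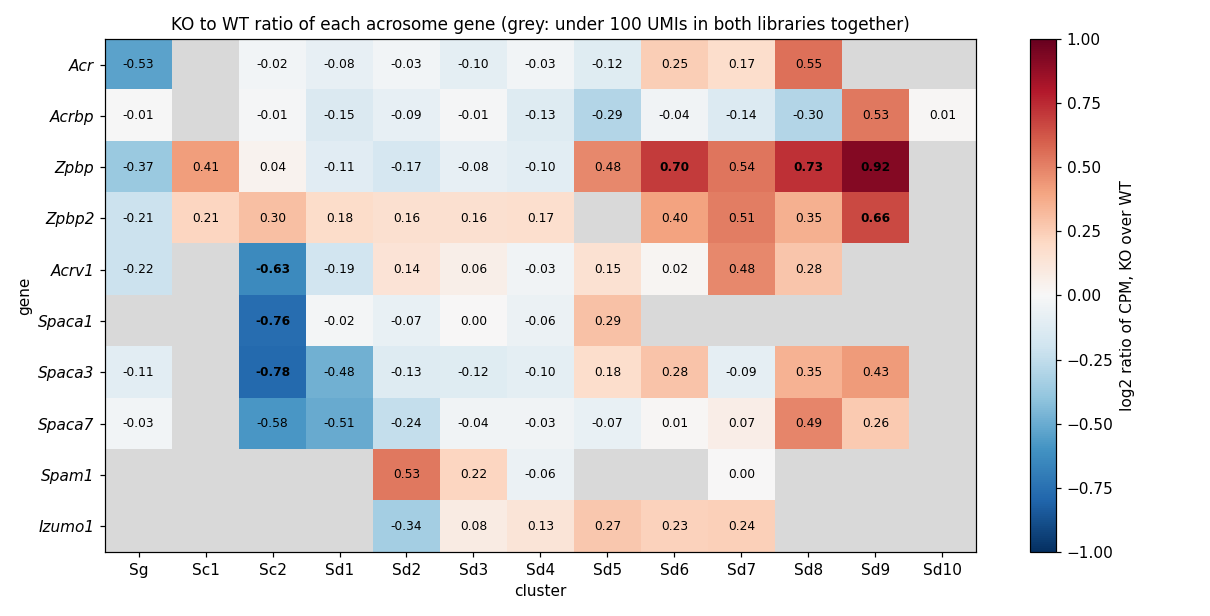
Log2 ratio of KO to WT CPM for each acrosome gene (rows) in each cluster (columns), red where KO is higher and blue where it is lower, with bold values at least 1.5-fold apart and grey where both libraries together held under 100 UMIs. From Sd2 to Sd4 the value farthest from 0 is 0.53 for Spam1 in Sd2, the 3 bold blue values are in Sc2, and the 4 bold red values are Zpbp in Sd6, Sd8 and Sd9 and Zpbp2 in Sd9.

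Summed over all 10 genes, KO stood above WT in the last clusters. The WT and KO levels were 175 and 216 CPM in Sd8, 169 and 232 CPM in Sd9, and 150 and 203 CPM in Sd10. All of these lay below the summed level in Sg, which was 511 CPM in WT and 450.2 CPM in KO. The log2 ratios were 0.30 (0.158 to 0.442) in Sd8, 0.45 (0.274 to 0.635) in Sd9 and 0.43 (0.174 to 0.695) in Sd10, where the sums rest on 188 WT and 357 KO UMIs. The early and late genes did not share this evenly. In Sd8, Sd9 and Sd10 the early genes were at 0.16 (-0.051 to 0.372), 0.69 (0.431 to 0.945) and 0.17 (-0.183 to 0.527). The late genes were at 0.41 (0.222 to 0.609), 0.21 (-0.047 to 0.471) and 0.73 (0.348 to 1.14). Without a UMI minimum, 9 of 10 genes had a ratio above 0 in Sd10, 1 of them with 2 WT and 7 KO UMIs. In Sd9 a single KO cell held 72 of the 591 KO UMIs of these genes (12.2%), and without the cell with most such UMIs in each library the log2 ratio was 0.38. In Sg the summed level was lower in KO than in WT (log2 ratio -0.18, -0.332 to -0.033).

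Other genes with a like course also stood higher in KO in the last clusters. Other than the 10 genes, 831 genes with an assigned row, 19 of them from the wider acrosome list described below, were at least 5-fold lower in Sd6 than in Sd4 in WT. Their summed level in KO against WT gave a log2 ratio of 0.16 in Sd6 (0.139 to 0.174), 0.21 in Sd7 (0.191 to 0.222), 0.20 in Sd8 (0.187 to 0.223), 0.40 in Sd9 (0.375 to 0.416) and 0.29 in Sd10 (0.254 to 0.316). Since choosing genes by their WT value in Sd6 can raise the ratio there, the choice was repeated in both libraries and without the wider list, which left 712 genes with log2 ratios of 0.12 in Sd6, 0.21 in Sd7, 0.21 in Sd8, 0.40 in Sd9 and 0.29 in Sd10. The intervals of the 10 genes overlapped with those of the 831 genes in Sd6, Sd8, Sd9 and Sd10, and in Sd7 the 10 genes were the lower of the pair, at 0.10 (0.001 to 0.191). Spaca7, which fell less than 5-fold, held 849 of the 1634 WT UMIs of the 10 genes in Sd7. Without Spaca7, the 9 members left were at 0.20 (0.048 to 0.343) in Sd6 and 0.12 (-0.012 to 0.262) in Sd7. Their intervals overlapped with those of the 831 genes in both clusters. The median of all genes with at least 100 UMIs was 0.04 in Sd9 and 0.01 in Sd10. Over the whole libraries, the 10 genes took 2175 CPM in WT and 2441 CPM in KO, and clusters Sd1 to Sd4 held 33.2% of the WT and 39.6% of the KO cells. Fewer cells of a type and less RNA per cell cannot be told apart in such a total.

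**Figure D4:**
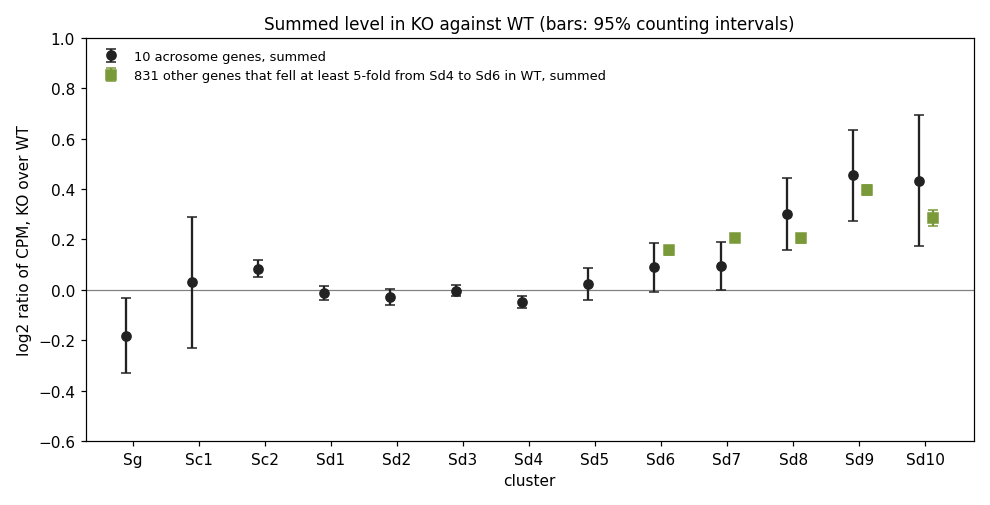
Log2 ratio of KO to WT (vertical axis) of the summed CPM of the 10 acrosome genes (black circles) in the 13 clusters, and of 831 other genes that are at least 5-fold lower in Sd6 than in Sd4 in WT (green squares, Sd6 to Sd10); bars are 95% counting intervals. The circles lie between -0.05 and 0.02 from Sd1 to Sd5 and at 0.30, 0.45 and 0.43 in Sd8, Sd9 and Sd10, and the squares lie at 0.20, 0.40 and 0.29 there.

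A wider list of 103 acrosome symbols, compiled from general knowledge, was read to place the 10 genes, and 56 of them had an assigned row. Their highest WT cluster was Sd1 for 12 genes, Sd2 for 5, Sd3 for 4 and Sd4 for 11, but it was Sd10 for 7 and Sc1 for 6, and 50 of 56 had the same highest cluster in KO. Of the 52 with at least 100 WT UMIs in Sd4, 19 were at least 5-fold lower in Sd6 and 14 were higher in Sd6 than in Sd4. In Sd4, 0 of 54 were past the limit of 1.5-fold between KO and WT, in Sd3 1 of 55, and in Sd10 4 of 22, all higher in KO, beside 9.88% of all genes.

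Of the genes listed under acrosome formation, Ccdc136 was highest in Sd10, at 3561 CPM in WT and 3881 CPM in KO, and Spaca9 in Sd5, at 3139.8 CPM in WT and 3054 CPM in KO. Of the matrix and protease genes, Cabs1, a calcium-binding protein of elongating spermatids, was highest in Sd10 at 6759 CPM in WT and 7798 CPM in KO. Crisp2, a cysteine-rich secretory protein of the acrosome and tail, was at 5793 CPM and 6366 CPM in Sd10. Ccdc136, Cabs1 and Crisp2 were thus highest in the cluster where the summed level of the 10 genes was lowest.

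Of the genes of binding and fusion, Ly6k was highest in Sc1, at 1399 CPM in WT and 1431 CPM in KO. Llcfc1, which is needed for fusion with the egg, was highest in Sd4, at 1117 CPM and 1035 CPM. Of the chaperones in the endoplasmic reticulum, Hspa5 was highest in Sc1, at 3496 CPM in WT and 4928 CPM in KO, and Clgn, which folds sperm surface proteins, in Sd1, at 2592 CPM and 2932 CPM. Of the exocytosis genes only Plcd4 and Napa had an assigned row, with WT maxima of 178 CPM in Sd4 and 122 CPM in Sd1.

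Between KO and WT, the listed genes farthest from 0 in Sd3, the cluster with the highest summed level, were Prss37 (log2 ratio 1.09), Agfg1 (0.33) and Hook1 (0.30) on the higher side and Actl9 (-0.27), Hyal5 (-0.27) and Dcst1 (-0.25) on the lower side. Prss37, a serine protease-like protein, was the 1 gene past the limit there, at 5.28 CPM in WT and 11.3 CPM in KO, far under its level of 829 CPM in WT Sd5. In Sd10 the highest ratios were those of Spink2, a protease inhibitor that holds acrosin in check, at 94.2 and 160.0 CPM, of Clgn at 47.9 and 79.4 CPM, and of Izumo2 at 67.9 and 103 CPM. The lowest were those of Prss55 (log2 ratio -0.36), Prss37 (-0.34) and Actl9 (-0.33), an actin-like gene, which stood at 1482 CPM in WT and 1181 CPM in KO. Spink2 and Clgn, like the 10 genes, were highest in 1 of the clusters Sd1 to Sd4, in both cases Sd1, while Izumo2 was highest in Sd7, at 713 CPM in WT and 715 CPM in KO.

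Among 3661 genes with at least 1000 WT UMIs, those whose course over the 13 clusters was most like the median course of the 10 genes were 1700016G14Rik (r = 0.994 in WT and 0.991 in KO), Tex36 (0.991 and 0.993), Tmem225 (0.981 and 0.975), Spag6 (0.981 and 0.989) and Fam24a (0.980 and 0.968). The clusters share 1 library, and r is given as a description of log2(CPM + 1). Nearest to the early genes were Tekt1 and Gk2 for Acr, 1700051A21Rik and Gm13570 for Acrbp, Tekt3 and Cfap45 for Zpbp, and Art3 and Slco6c1 for Zpbp2, with r between 0.991 and 0.995 in WT. Acrv1 and Spaca3 shared the same nearest genes, Fam209 and Efcab9. The nearest were 1700016G14Rik and Tex36 for Spaca1, 4930522H14Rik and Tes for Spaca7, Gm6569 and Spata31 for Spam1, and Fndc11 and Kcne3 for Izumo1, with r between 0.962 and 0.983.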

How the data were processed

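Single testis cells of 1 WT and 1 KO library were analysed, each from 3 pooled testes of 3 mice. According to the study's methods and the submitters' processing notes, reads were checked with FastQC 0.11.7, trimmed with fastp 1, aligned to mm10 with STAR 2.5.3a and assigned with featureCounts 1.6.2, and cells were filtered and clustered with Seurat 3.2.3. The authors deposited raw UMI counts per gene and cell. The deposited cell table also gives the percent of mitochondrial UMIs per cell, used to place symbols (below), and totals after sctransform, a score that was not used.

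The deposited symbol list had 25065 lines and the matrix 26758 rows, so symbols were placed on rows in list order, by the per-cell totals and mitochondrial percentages. Gene numbers per cell were compared with the matrix only as a check. It was assumed that a row without a symbol was seen in fewer than 5 cells. Only symbols left with a single candidate row entered the analysis, 5476 in all, carrying 87.1% of WT and 86.7% of KO UMIs. Without that assumption 7 of the 10 genes keep 1 row, and Spaca3, Zpbp and Spam1 have 2, 2 and 13.

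UMIs were summed per library and authors' cluster and divided by all UMIs (CPM). Ratios used a prior of 1 UMI spread over both libraries. Levels have exact Poisson, ratios conditional binomial and shares Clopper-Pearson 95% intervals, which cover counting error only; a count of 0 was taken to allow 3. With 1 library per genotype no test was made. A gene counted as different at 1.5-fold or more with at least 100 UMIs. No doublet caller was run. Named were all 10 genes, of the wider acrosome list the 2 with the highest WT peak per role and the 3 highest and lowest ratios in Sd3 and Sd10, the genes of nearest course, and stage landmarks. The 10 genes, the lists and the rules were chosen with earlier results of these data known, and the motif TGANGTCA, UMIs per cell, leaving out the cell with most UMIs and other choices of the like-course genes were added after seeing the data. Promoter windows came from RefSeq (GRCm38.p6). Python 3.11.15, numpy 2.4.6, scipy 1.17.1, pandas 2.3.3 and matplotlib 3.10.9 were used, and the ratio code was tested on simulated data.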

Additional observations from a re-analysis of the deposited data

Results flagged for a closer look

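The summed level of the 10 acrosome genes differed between KO and WT in opposite directions in different clusters, by more than counting error, and this difference between clusters was not tested. The log2 ratio of KO to WT was below 0 in Sg (-0.18) and in Sd4 (-0.048). It was above 0 in Sc2 (0.084), Sd7 (0.10), Sd8 (0.30), Sd9 (0.45) and Sd10 (0.43). From Sd7 to Sd10 the summed levels lay below the summed level in Sg in both libraries. In Sc2 the sum did not stand for most genes: of the 8 with enough UMIs, 6 were below 0 and 2 above. Their median there was -0.30, and the summed log2 ratio was 0.11 for the early genes and -0.66 for the late genes. With UMIs per cell the value in Sd7 turned to -0.0194, where the median of all genes was -0.0949. With 1 library per genotype, differences between mice, preparations and genotypes cannot be told apart.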

How the results depend on the processing

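No paired analysis was possible because there was 1 library per genotype. Of the 130 single ratios, none moved beyond its counting interval with other totals, centring or a prior of 10 UMIs, 2 did with the mean of single-cell CPM, 4 without the 5% of cells with most UMIs, 19 with thinned cells and 22 with UMIs per cell. The 7 values past the limit became 15 with thinned cells, 11 without the cells with most UMIs, 17 with a minimum of 10 UMIs, 18 with none and 0 at a 2-fold limit. With thinned or left-out cells the UMI minimum was applied to the full counts, here and for the wider list. For the wider list 21 became 46 with thinned cells, 71 with a minimum of 10 UMIs and 3 at a 2-fold limit. For both lists the share of all genes was not computed under the changed settings. These counts are therefore not read as results about acrosome genes. The summed log2 ratio was -0.0363 in Sd3 and -0.0891 in Sd4 with the mean of single-cell CPM, 0.0231 in Sc2 and -0.0857 in Sd4 with thinned cells, and -0.0371 in Sd3 without the cells with most UMIs. With UMIs per cell, added after seeing the data, it turned to -0.0194 in Sd7 and was 0.0471 in Sc2. The median of all genes was -0.0949 in Sd7 and -0.0618 in Sc2 in that setting. The summed log2 ratio was then 0.15 in Sd1, 0.14 in Sd2 and 0.16 in Sd3. The medians over the 10 genes were 0.0376, 0.0888 and 0.16 in Sd1 to Sd3, where the median of all genes was 0.15, 0.16 and 0.15. For the other genes of like course, the summed log2 ratio in Sd6 was 0.104 when chosen in KO, 0.125 in both libraries and 0.124 also without the wider list, in place of 0.16, and moved within its interval in Sd7 to Sd10. With cells at their own depth, the median share of cells was 96.3% in WT Sd3, 94.9% in WT Sd4, 97.4% in KO Sd3, 93.1% in KO Sd4 and 8.81% in KO Sd10. Except where a value shows it, the cause was not tested. Depth limits the values after Sd7, where single genes rest on few UMIs.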
